A study of Mus musculus with 18 samples.

Results

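Of the 18 libraries of the series, 6 carry the response described here, the response to doxorubicin when isoliensinine was present on both sides. The comparison sets the 3 libraries titled D_I (doxorubicin with isoliensinine) against the 3 titled B_I (isoliensinine alone), chosen by sample title and not by any measured value. All 18 libraries come from MOVAS, a line of mouse aortic vascular smooth muscle cells immortalised with a viral large T antigen, so every group is the same single line. The other groups used are Dox, 3 libraries of cells given doxorubicin, and Blank, 3 libraries of untreated cells with the replicate numbers 1, 2 and 4. D_I and B_I are labelled only as given isoliensinine and were read as the isoliensinine arms of Dox and Blank because their titles run in parallel. The labels give neither doses nor times. The 4 groups share no library, so the response with isoliensinine can be set beside the response without it. The 2 responses are not fully independent, since 1 fit over all 18 libraries gave both with a shared estimate of the spread. B_I and Blank also each hold 1 library with a like shift, B_I_3 and Blank_4, described below.

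Doxorubicin is an anthracycline that inserts into DNA and traps topoisomerase II on it, which leaves double-strand breaks. Broken DNA stabilises the transcription factor p53, which induces the cell-cycle inhibitor Cdkn1a (p21) and its own antagonist Mdm2. Cells that stay arrested this way become senescent: they enlarge, secrete growth factors and proteases, and can show ligands that natural killer (NK) cells recognise. Isoliensinine is a bisbenzylisoquinoline alkaloid of lotus seed. The series' title asks whether it helps NK cells to clear senescent smooth muscle cells, and these libraries hold RNA of the smooth muscle cells.

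Promoter sequences of 6 genes are shown because 3 gene groups described below had 20 or more members called higher in D_I. Each group is known for a short sequence, which was searched here only near start sites. The 6 genes were picked, with their values known, among members whose window holds a match before the start. The windows are the 250 bases before RefSeq start sites on GRCm38.p6, written 5′ to 3′ on the gene's strand. Capitals mark matches on either strand. Oas1a (chr5:120907526-120907775, minus strand) and Isg15 (chr4:156200819-156201068, minus strand) are interferon-stimulated genes. Their capitals mark GAAA followed after any 2 bases by GAAA again, the core of the interferon-stimulated response element, and the matches overlap one another in both genes.
Oas1a: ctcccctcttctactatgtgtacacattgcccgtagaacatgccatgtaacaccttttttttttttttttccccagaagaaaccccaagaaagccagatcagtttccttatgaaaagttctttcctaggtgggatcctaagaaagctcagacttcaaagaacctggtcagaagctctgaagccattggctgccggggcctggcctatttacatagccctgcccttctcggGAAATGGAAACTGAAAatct
Isg15: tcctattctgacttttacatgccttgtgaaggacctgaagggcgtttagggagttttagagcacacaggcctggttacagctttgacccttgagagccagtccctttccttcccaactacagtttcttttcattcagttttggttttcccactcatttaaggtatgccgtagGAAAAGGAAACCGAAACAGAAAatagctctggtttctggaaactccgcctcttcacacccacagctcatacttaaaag

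Prc1 (chr7:80294226-80294475, plus strand) and Cdk1 (chr10:69352913-69353162, minus strand) are mitotic genes. Capitals mark TTTGAA, the core of the cell-cycle homology region, and CCAAT, the box bound by NF-Y. Prc1 has another start in RefSeq, whose window is not printed.
Prc1: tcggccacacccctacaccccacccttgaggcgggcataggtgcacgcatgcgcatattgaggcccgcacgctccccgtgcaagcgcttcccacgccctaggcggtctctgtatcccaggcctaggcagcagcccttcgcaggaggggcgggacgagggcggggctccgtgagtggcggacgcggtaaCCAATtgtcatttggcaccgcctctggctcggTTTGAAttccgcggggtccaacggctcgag
Cdk1: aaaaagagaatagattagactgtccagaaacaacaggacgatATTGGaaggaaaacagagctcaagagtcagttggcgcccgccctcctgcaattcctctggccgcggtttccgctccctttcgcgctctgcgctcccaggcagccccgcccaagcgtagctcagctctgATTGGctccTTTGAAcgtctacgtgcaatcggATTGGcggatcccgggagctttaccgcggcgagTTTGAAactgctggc

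Cdkn1a (chr17:29090729-29090978, plus strand, the upstream one of 2 start sites in RefSeq) and Mdm2 (chr10:117710759-117711008, minus strand) are p53 targets. Capitals mark the p53 half-site, the decamer of which a full p53 element holds a pair. The Mdm2 window holds 1 match and so no pair.
Cdkn1a: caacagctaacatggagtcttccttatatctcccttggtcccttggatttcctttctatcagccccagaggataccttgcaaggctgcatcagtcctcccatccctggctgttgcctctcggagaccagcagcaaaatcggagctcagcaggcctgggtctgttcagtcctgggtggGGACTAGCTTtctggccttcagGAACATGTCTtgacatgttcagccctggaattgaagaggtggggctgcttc
Mdm2: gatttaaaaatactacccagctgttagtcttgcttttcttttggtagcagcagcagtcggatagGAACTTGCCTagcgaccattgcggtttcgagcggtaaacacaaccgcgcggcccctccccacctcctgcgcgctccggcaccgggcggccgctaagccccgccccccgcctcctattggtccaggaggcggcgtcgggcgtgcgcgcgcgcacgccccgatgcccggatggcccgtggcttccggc

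Over whole windows of 300 bases, which add 50 bases after the start, this response element core occurred on either strand in 3.99% of 27025 genes with a window. It was present in 19 of 39 tested interferon-stimulated genes with a window (48.7%) and in 9 of the 19 that were called higher in D_I (47.4%). The core of the cell-cycle homology region occurred in 20.2% of all genes and in 20 of 30 mitosis genes (66.7%). The NF-Y box occurred in 41.1% of all genes and 76.7% of the mitosis genes. The p53 half-site occurred in 9.55% of all genes and in 11 of 29 p53 targets (37.9%). Among the members called higher, 73.3% of the mitosis genes held the homology-region core, 86.7% held the NF-Y box, and 35.3% of the p53 targets held the half-site. A match describes the letters in the window and does not show a bound factor.

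The libraries held 15329101 to 16921525 counts in D_I and 16403254 to 17955971 in B_I. B_I_3 stood apart from B_I_1 and B_I_2: ribosomal protein genes took 11.72% of its counts against 9.17% and 9.65%, and 7.84% to 8.34% in D_I. Its smooth muscle markers summed to 4921 CPM, here and below the counts scaled to library size with edgeR's trimmed means of M-values (TMM), against 1846 and 1924 in the other B_I libraries and 1558 to 1834 in D_I. Most of that sum was Acta2, at 3875 CPM in B_I_3 against 1122 and 1178 CPM. Myl9 was also high in B_I_3 (297.7 CPM against 74.37 and 80.35), while Myh11 (3.34 CPM) and Cald1 (35.55 CPM) were at their lowest of the 6 libraries. Blank_4 showed a like shift, with 12.02% ribosomal protein counts and 4514 CPM of Acta2. Counts below were therefore also taken without B_I_3, and what sets it apart was not tested. Tagln, a defining smooth muscle marker, was near absent in both groups, with 2 counts in each D_I library and 4 to 13 in B_I, and was not tested. Acta2, smooth muscle actin, was abundant. Markers of intestinal and liver epithelium, which smooth muscle cells should lack, had counts in all 6 libraries. The 18 markers summed to 269, 246 and 311 CPM in D_I and to 391, 178 and 144 CPM in B_I, so B_I_1 was highest and D_I lay above B_I_2 and B_I_3. Muc2, an intestinal mucin, ran from 13.7 to 57.7 CPM, and Alb, the albumin of liver, from 44.4 to 66.9 CPM. The part of these transcripts in the results below was not tested. The NK receptor genes Ncr1 and Klrk1 were at 0 in all 6 libraries.

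In D_I, 2518 of 13375 tested genes (18.8%) differed from B_I (edgeR quasi-likelihood test, Benjamini-Hochberg adjusted p under 0.05). Of these, 1259 (9.41%) were higher and 1259 (9.41%) lower, and these are the background shares for every list below. The median log2 fold change over all genes was 0.08. The split depended on the method: limma on log2(FPKM + 1) called 2333 higher and 876 lower, with a median of 0.17, and on log2(FPKM + 0.1) 2293 and 871, with a median of 0.22. Without B_I_3, 916 genes (6.65%) were called higher and 1105 (8.02%) lower. Of the 2518 genes, 1807 were called again without B_I_3, and all 2518 kept their direction. These counts, and calls said below to be lost without B_I_3, come from a fit that still held Blank_4. Calls numbered 2891 without B_I_3 and Blank_4 together, and 3762 in the fit of only the 2 groups without B_I_3. Both of these fits were added after seeing the data. Trp53, Cdkn2a and Brca1, whose calls were lost without B_I_3, kept them in both. Other calls lost without B_I_3 did not all return. Tdp2, H2bc4 and H1f2 were uncalled in both of these fits as well. Kif11, Ccnd2, Ripk1, Mylk, Hsp90aa1 and Dnaja1 were also uncalled without B_I_3 and Blank_4 together. D_I had more genes with at least 1 count (15011 to 15103) than B_I (13658 to 14467). In bulk RNA, fewer cells expressing a gene and less of its RNA per cell cannot be told apart.

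Targets of p53 were high in the cells given doxorubicin with isoliensinine. Cdkn1a stood at 492, 426 and 432 CPM in D_I and at 128, 128 and 94.8 CPM in B_I. All 3 D_I libraries lay above all 3 B_I libraries, a log2 fold change of 1.94 (SE 0.13, adjusted p = 4.01e-09). Mdm2, the ubiquitin ligase that degrades p53, stood at 19.98, 15.4 and 17.04 CPM against 4.31, 3.29 and 2.69 CPM, a 5.07-fold rise (adjusted p = 3.57e-06). Of 39 p53 targets, all of them tested, 22 rose and 2 fell, with a median log2 fold change of 0.81 against 0.08 over all genes. Without B_I_3 the counts were 19 and 1.

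Sprr1a, a cornified-envelope protein gene counted among the p53 targets, was almost silent in B_I, with 0.233, 0.129 and 0.385 CPM. It reached 13.9, 13.6 and 12.04 CPM in D_I, that is 663 counts against 12, a depth-corrected ratio of 52.8 with a 95% counting interval of 30.0 to 103. Pierce1 rose 7.43-fold, and Tnfrsf10b, which encodes the death receptor for TRAIL, rose 2.46-fold. The 2 members that fell were Sesn1, a stress-induced regulator of growth signalling (log2 fold change -0.59), and Trp53 itself. Trp53 went from 272, 279 and 316 CPM in B_I to 240, 232 and 239 CPM in D_I, a small change (adjusted p = 0.0426). Its call was lost without B_I_3 (0.123) and without D_I_1, D_I_2 or D_I_3 (0.0994 to 0.138), and with limma on log2(FPKM + 1) (0.185).

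**Figure D1:**
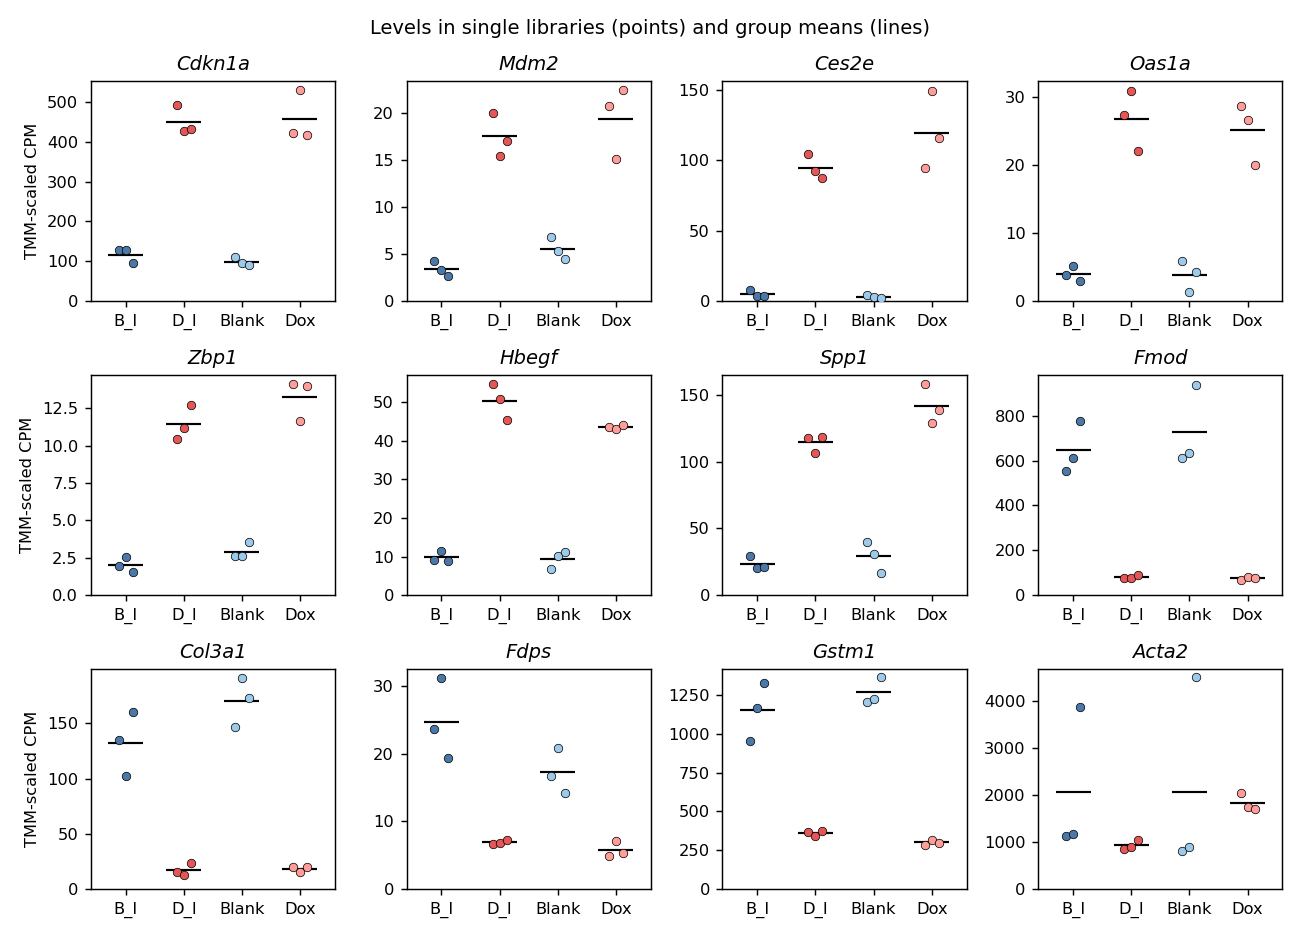
Levels in TMM-scaled CPM (linear vertical axes from 0) of 12 genes in the libraries of B_I, D_I, Blank and Dox; points are libraries and lines group means. Cdkn1a, Mdm2, Ces2e, Oas1a, Zbp1, Hbegf and Spp1 are high in both doxorubicin groups, Fmod, Col3a1, Fdps and Gstm1 are low in both, and Acta2 is set apart by 1 library of B_I and 1 of Blank.

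Other inhibitors and regulators of the cell cycle were more often lower than higher. Of 23 tested CDK inhibitors and senescence regulators (24 listed), 2 rose and 7 fell, with a median of -0.26. Cdkn2a, which encodes p16 and p19Arf, stood at 74.3, 82.2 and 86.2 CPM in D_I against 99.2, 113 and 159 CPM in B_I, a log2 fold change of -0.61 (adjusted p = 0.00894). The call was lost without B_I_3 (adjusted p = 0.0625) or D_I_1 (0.0536). Cdkn1c (p57) fell 3.20-fold, and Cdk4, the partner kinase of D cyclins, fell from 578, 631 and 615 CPM to 329, 337 and 348 CPM. Ccnd1, a D cyclin, moved the other way, from 42.7, 34.9 and 21.9 CPM to 105, 102 and 85.3 CPM, a 2.93-fold rise. Glb1, which encodes the enzyme behind senescence-associated beta-galactosidase staining, fell slightly (log2 fold change -0.35, adjusted p = 0.0121). Without D_I_3 its adjusted p was 0.0812, and with limma on log2(FPKM + 1) 0.113. Lmnb1, a nuclear lamina gene often low in senescence, had a log2 fold change of -0.28 and was not called (adjusted p = 0.199). It stayed uncalled in 16 of 17 alternatives. The fit of only the 2 groups without B_I_3 called it lower (-0.41, adjusted p = 0.00355).

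Among 38 tested mitosis and kinetochore genes, 20 rose and none fell, with a median log2 fold change of 0.57. Without B_I_3, 18 rose and none fell. Dlgap5, a spindle microtubule protein gene, stood at 35.3, 39.4 and 29.6 CPM in D_I and at 16.1, 16.4 and 15.0 CPM in B_I. Prc1, the crosslinker of the spindle midzone, rose 2.003-fold (84.2, 76.5 and 69.1 CPM against 50.4, 27.6 and 36.6). Cenpe, a kinetochore motor, rose 2.71-fold. Cdk1, the mitotic kinase, stood at 143, 143 and 141 CPM against 87.2, 97.1 and 112 CPM, and rose by 0.53 on the log2 scale. Mki67, the proliferation marker, rose 1.74-fold (adjusted p = 0.0148), a call lost without B_I_2 (0.067) or D_I_1 (0.1).

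Of 42 replication and E2F target genes, 10 fell and 5 rose, with a median of -0.19. Chaf1b, a chromatin assembly factor subunit, stood at 121, 114 and 123 CPM in D_I against 225, 249 and 233 CPM in B_I. The fall was 1.98-fold, and the groups were far apart. The nucleotide synthesis genes Tk1 and Tyms fell 1.76-fold and 1.61-fold, and Mcm6, a subunit of the replicative helicase, fell 1.48-fold. Mcm10 and E2f2 were among the 5 that rose (log2 fold changes 0.89 and 0.95). Replication-dependent histones had a median log2 fold change of -1.37 over 23 tested of 33 listed genes, with 7 lower and 2 higher. Most histone messages lack a poly-A tail and have close copies, so poly-T captured counts of them are uncertain. H1f1 stood at 0.747, 0.179 and 1.02 CPM in D_I against 2.97, 6.97 and 2.89 CPM in B_I, and its call was lost without B_I_2 or D_I_2. The 2 that were higher, H2bc4 and H1f2, lost their calls without B_I_3.

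Repair genes were called about as often as all tested genes, of which 18.8% were called either way. Of 34 DNA damage signalling and repair genes, 5 rose and 1 fell, with a median of 0.39, and without B_I_3 the counts were 2 and 2. Mdc1, a scaffold at breaks, rose 1.47-fold. Brca1 rose 2.01-fold, a call lost without B_I_3 (adjusted p = 0.0659). Tdp1, which removes trapped topoisomerase I from DNA, fell 1.55-fold, a call lost without D_I_1 (0.0547). Top2a, the topoisomerase that doxorubicin poisons, had 148, 105 and 117 CPM in D_I against 95.1, 74.9 and 51.9 CPM and was not called (adjusted p = 0.0894).

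Interferon-stimulated genes formed one of the clearest groups. Of 52 tested of 54 listed, 27 were higher and none lower, with a median log2 fold change of 1.05. Without B_I_3, 22 were higher and none lower, with a median of 0.86. Oas1a, a sensor of double-stranded RNA that activates RNase L, stood at 27.3, 30.9 and 22.1 CPM in D_I against 3.84, 5.23 and 3.02 CPM in B_I, a 6.64-fold rise (adjusted p = 4.88e-06). Zbp1, a sensor of Z-form nucleic acid that can start necroptosis, stood at 10.5, 11.2 and 12.7 CPM against 1.92, 2.58 and 1.54 CPM. In both genes the lowest D_I library was more than 4 times the highest B_I library. Oas2 rose 9.35-fold, with its D_I libraries spread from 3.18 to 8.27 CPM. Isg15, a ubiquitin-like modifier, rose by 1.09 on the log2 scale, and Bst2 (tetherin) stood at 135, 142 and 130 CPM against 74.8, 70.3 and 73.3 CPM. Trim30a rose 4.004-fold, a call lost without B_I_2 (adjusted p = 0.0612) or D_I_1 (0.0554). Of 12 tested nucleic acid sensors, 1 was called, Adar, the RNA-editing enzyme, with 135, 139 and 108 CPM against 58.8, 59.4 and 66.0 CPM.

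**Figure D2:**
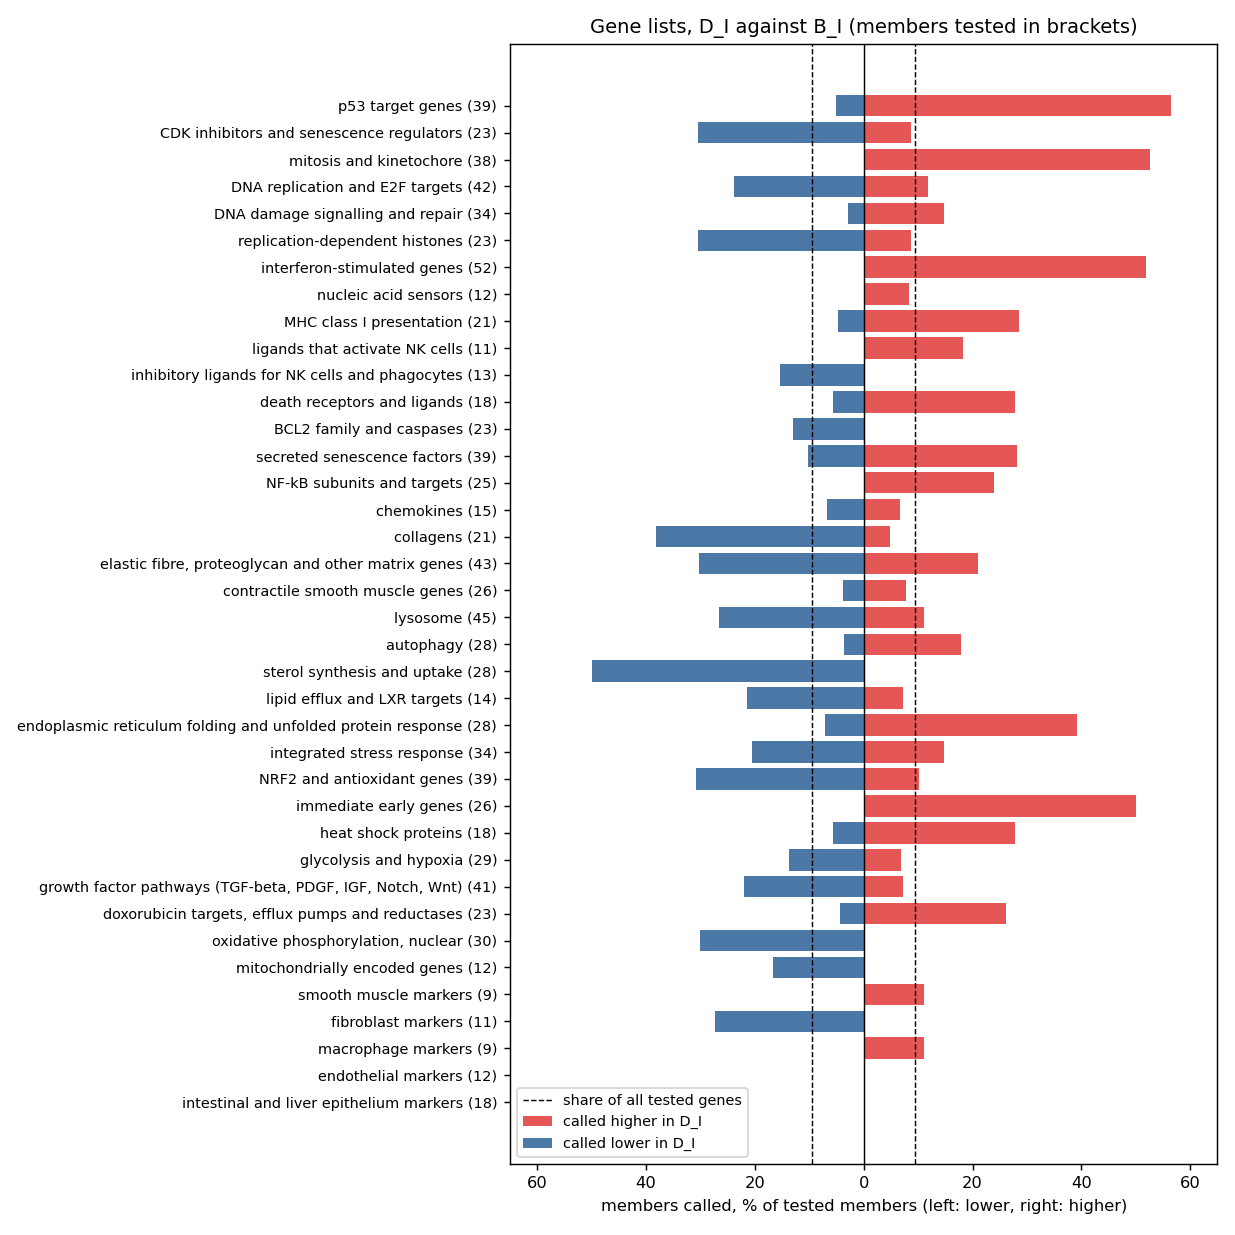
Members of each gene list called higher (right) or lower (left) in D_I than in B_I, as percent of the members tested, whose number is in brackets; dashed lines mark the share of all tested genes, 9.41% each way. The bars of the p53 targets, mitosis, interferon-stimulated and immediate early genes reach far to the right, and those of sterol synthesis and the collagens far to the left.

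Genes that matter for recognition by NK cells were read next, because the series' title concerns NK cells. MHC class I molecules present peptides and are known to restrain NK cells. The heavy chain H2-D1 stood at 415, 460 and 429 CPM in D_I against 148, 127 and 188 CPM in B_I (2.82-fold, adjusted p = 1.09e-07). H2-K1 stood at 642, 660 and 624 CPM against 281, 290 and 327 CPM, a 2.15-fold rise. B2m, the light chain, rose 1.49-fold, from 1248, 1390 and 1173 CPM to 1922, 1923 and 1832 CPM. Genes of peptide transport and loading were not called: Tap1 had a log2 fold change of -0.09 (adjusted p = 0.617) and Tapbp of -0.01 (0.966). Of 21 tested class I genes of 23 listed, 6 rose and 1 fell, the immunoproteasome activator Psme1, against 3 and 1 without B_I_3. Reads of H2 genes can be split between close copies.

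Activating ligands showed 2 calls among 11 tested of 19 listed, near the 18.8% of all tested genes called either way. Pvr, a ligand of the NK receptor CD226 and of the inhibitory receptor Tigit, stood at 94.9, 95.8 and 84.0 CPM against 58.4, 50.7 and 60.2 CPM, a 1.62-fold rise that held without B_I_3 (adjusted p = 0.000249). Ulbp1, a ligand of NKG2D, stood at 39.8, 29.9 and 32.4 CPM against 20.1, 17.6 and 14.1 CPM. Its adjusted p was 0.0139, and the call was lost without B_I_2 (0.0529), B_I_3 (0.0721) or D_I_1 (0.0703). Nectin2, another CD226 ligand, was not called (106, 117 and 115 CPM against 66.2, 68.1 and 103 CPM, adjusted p = 0.0568). Without B_I_3, its highest B_I library, the adjusted p was 0.00693. Raet1e had a log2 fold change of -0.26 (adjusted p = 0.179).

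Of 13 tested inhibitory ligands, 2 fell and none rose, a share under the 18.8% of all tested genes called either way. Cd24a, a surface glycoprotein that signals restraint to phagocytes, went from 55.5, 64.2 and 46.4 CPM to 27.5, 27.8 and 32.0 CPM. Lgals3 (galectin 3) went from 558, 619 and 396 CPM to 356, 325 and 346 CPM, a call lost on log2(FPKM + 1) (adjusted p = 0.0698). Cd274 (PD-L1) stayed under 2 CPM in every library and was not called. Tigit, itself an inhibitory receptor normally of lymphocytes, had 8.65, 8.39 and 8.80 CPM in D_I and 0.116, 0 and 0 CPM in B_I. That is 435 counts against 2, a depth-corrected ratio of 208 with a 95% counting interval of 57.2 to 1723. Dox cells also carried it, with 9.22, 9.56 and 7.60 CPM, where Blank had 0.747, 0.308 and 0 CPM.

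Of 18 tested death receptors, ligands and their adaptors and kinases, 5 rose and 1 fell, the adaptor Fadd, whose call was lost without B_I_3 (adjusted p = 0.0567) or D_I_1 (0.103). Fas, the receptor for Fas ligand, rose 2.02-fold, with 12.4, 11.1 and 11.4 CPM against 4.36, 4.26 and 8.66 CPM, and its call was lost without B_I_2 (adjusted p = 0.0648). Within the BCL2 family and caspases, 3 of 23 tested genes fell and none rose, a share under the 18.8% of all tested genes called either way. The 3 were the pro-apoptotic genes Bok, Bmf and Bak1, and Bak1 went from 338, 426 and 430 CPM to 245, 232 and 234 CPM.

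**Figure D3:**
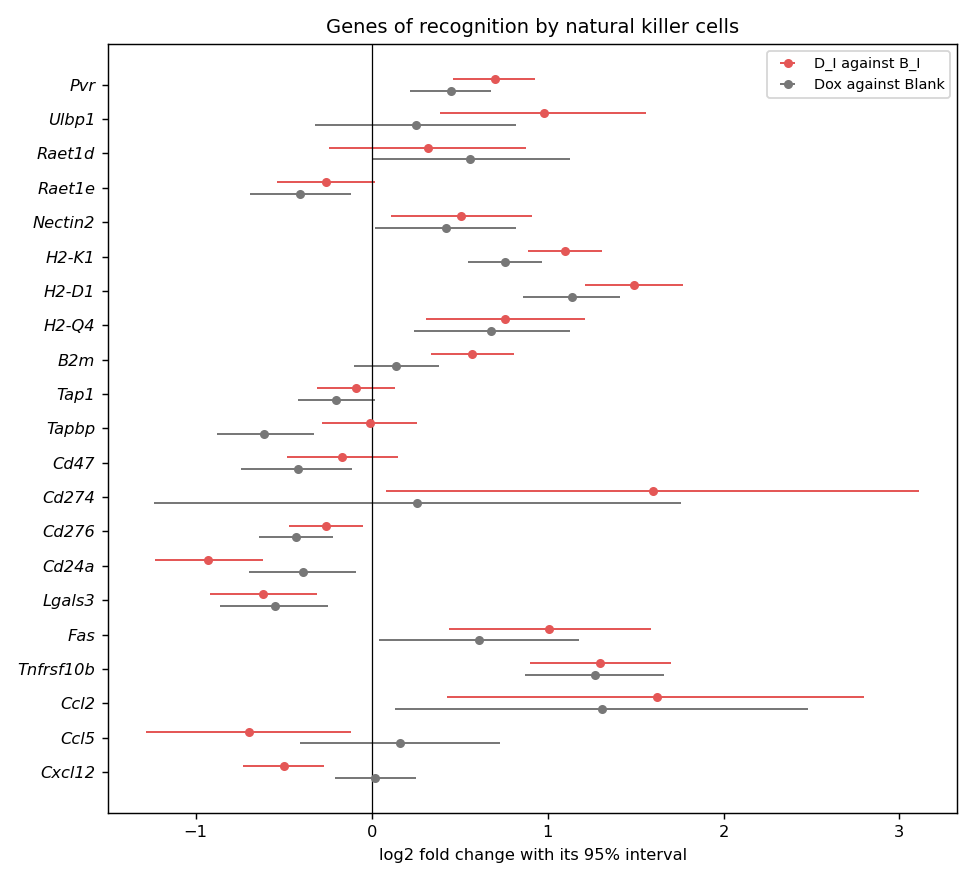
Log2 fold changes of 21 genes that bear on recognition by NK cells, picked with their values known, with 95% intervals (horizontal lines), in D_I against B_I (red) and in Dox against Blank (grey). H2-D1, H2-K1 and Tnfrsf10b lie clear of 0 in both, Cd24a and Lgals3 lie below 0 in both, and the intervals of Cd274 and Ccl2 are the widest.

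Secreted factors of senescence rose more often than they fell: 11 of 39 tested (49 listed) were higher and 4 lower, with a median of 0.52. Without B_I_3 the counts were 11 and 3. Hbegf, an EGF receptor ligand, stood at 54.7, 50.9 and 45.3 CPM in D_I and at 9.08, 11.5 and 8.92 CPM in B_I, a 5.12-fold rise (adjusted p = 3e-08). Spp1 (osteopontin) stood at 118, 107 and 119 CPM against 29.2, 20.1 and 20.8 CPM. Plau, the urokinase protease, rose 3.85-fold. Igfbp5, which binds insulin-like growth factors, fell 4.80-fold, and Cxcl12 fell from 166, 166 and 151 CPM to 108, 114 and 120 CPM, a call lost on log2(FPKM + 1) (adjusted p = 0.0663). Of 15 tested chemokines, 1 rose and 1 fell. The riser was Ccl2, which draws monocytes, with 2.68, 4.46 and 2.50 CPM against 0.815, 1.16 and 1.16 CPM, whose adjusted p of 0.0415 went to between 0.053 and 0.174 when any 1 of the 6 libraries was left out. Ccl5 had a log2 fold change of -0.70 and was not called (adjusted p = 0.0704). It was called by DESeq2 (adjusted p = 0.0404).

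Among NF-kB subunits and targets 6 of 25 rose and none fell. Traf1, an adaptor of TNF receptors, stood at 6.29, 5.83 and 4.60 CPM against 0.698, 0.968 and 1.09 CPM, and Relt rose 2.43-fold. Immediate early genes, which respond to growth factor and stress signals within minutes, rose in 13 of 26 cases and fell in none. Dusp1, a MAP kinase phosphatase, stood at 84.9, 90.8 and 96.2 CPM against 24.5, 28.8 and 38.9 CPM. Atf3 rose 2.57-fold and Fos 2.58-fold. In Dox against Blank, 6 of these 26 rose and 1 fell.

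Among the 8 largest falls with separate groups and at least 5 FPKM in B_I, 3 were genes of the extracellular matrix, and they were the deepest of the 8. Eln, which encodes elastin, went from 37.6, 39.6 and 68.0 CPM in B_I to 4.17, 4.52 and 6.53 CPM in D_I, a 9.498-fold fall. Fmod (fibromodulin, a collagen-binding proteoglycan) went from 554, 614 and 777 CPM to 76.0, 77.6 and 90.7 CPM (7.96-fold, adjusted p = 4.01e-09). Both groups were far apart, and both genes kept their calls in all 17 alternatives. Col3a1, a fibrillar collagen gene, went from 135, 102 and 160 CPM to 15.4, 12.4 and 23.6 CPM. Col1a2, a chain of collagen I, fell 3.15-fold, from 6686, 5732 and 7710 CPM to 2043, 2144 and 2200 CPM.

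Of 21 tested collagens 8 fell and 1 rose, with a median of -0.39, and the counts were the same without B_I_3. Col18a1, the source of endostatin, was the one that rose (1.66-fold). Among 43 other matrix genes, 13 fell and 9 rose. Sparc, a collagen chaperone of the matrix, went from 4891, 5142 and 5733 CPM to 1927, 1975 and 2015 CPM. Fbln5, which assembles elastic fibres, fell 3.10-fold. Thbs1 (thrombospondin) and Loxl2, a collagen crosslinking enzyme, were among those that rose, 2.39-fold and 2.05-fold. Other large falls were Cdh22, a cadherin (5.47-fold), Nrep (4.94-fold) and Ptn, which encodes pleiotrophin (4.21-fold).

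Of 26 tested contractile genes, 2 were higher and 1 lower, with a median of -0.09. Acta2 stood at 853, 891 and 1047 CPM in D_I and at 1122, 1178 and 3875 CPM in B_I. B_I_3 held the high value, and the log2 fold change of -1.15 (SE 0.59, adjusted p = 0.214) went to -0.34 without it (adjusted p = 0.771). The fit of only the 2 groups without B_I_3 called it (adjusted p = 0.00227). Smooth muscle markers gave 1 call among 9 tested, Mylk, the myosin light chain kinase, and none without B_I_3. Fibroblast markers gave 3 calls, all lower, among 11 tested: Serpinf1 (3.42-fold), Pdgfra (1.98-fold) and Pdgfrb (1.49-fold).

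Cd68, a lysosomal glycoprotein used as a macrophage marker, was the only one of 9 tested macrophage markers to be called. It stood at 23.1, 20.1 and 19.7 CPM in D_I against 3.67, 3.36 and 1.797 CPM in B_I, a 7.10-fold rise. Summed over the list, the macrophage markers ran from 56.7 to 78.1 CPM in D_I and from 38.1 to 61.6 CPM in B_I. Itgam, which defines myeloid cells, had 2 to 7 counts per library in D_I and 0 in B_I. None of the 12 endothelial, 2 lymphocyte or 18 epithelial markers tested was called, and a replicate block called 1 epithelial marker higher.

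Lysosomal genes fell more often than they rose, 12 against 5 of 45 tested. Hexa, a subunit of beta-hexosaminidase, went from 309, 381 and 246 CPM to 191, 191 and 185 CPM, and the protective protein gene Ctsa from 771, 866 and 568 CPM to 454, 462 and 457 CPM. Tfeb, the regulator of lysosome genes, fell 1.62-fold. Ctsf, a cathepsin gene near silence in B_I, rose to 131 counts against 6, a depth-corrected ratio of 20.9 with a 95% counting interval of 9.34 to 57.9. Of 28 autophagy genes 5 rose and 1 fell, and without B_I_3 the counts were 2 and 1. Ulk1, the kinase that starts autophagy, rose 1.54-fold, while Gabarap, an autophagosome membrane protein gene, fell from 1170, 1273 and 1123 CPM to 629, 669 and 662 CPM.

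Genes of sterol synthesis and uptake fell: 14 of 28 were lower and none higher, with a median log2 fold change of -0.48. Without B_I_3, 16 were lower and none higher. Fdps, which makes farnesyl diphosphate, stood at 6.60, 6.84 and 7.27 CPM in D_I against 23.6, 31.3 and 19.3 CPM in B_I, a 3.58-fold fall. The mevalonate pathway kinases Mvk and Pmvk fell 2.03-fold and 1.70-fold. Hmgcs1, an early enzyme of the pathway, had a log2 fold change of 0.10 and was not called (adjusted p = 0.879). Among 14 lipid efflux genes and targets of the sterol sensor LXR, Abca1, the cholesterol exporter, was the only one to rise, from 30.7, 21.9 and 20.1 CPM to 65.7, 58.0 and 51.8 CPM, and 3 fell.

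In the endoplasmic reticulum, 11 of 28 tested genes of folding and the unfolded protein response were higher and 2 lower. Without B_I_3 the counts were 6 and 2. Hspa5 (BiP) stood at 322, 313 and 296 CPM against 179, 134 and 137 CPM, and Ern1, which encodes the sensor IRE1, rose 2.49-fold. The integrated stress response list had 5 higher and 7 lower of 34. Its transcription factor Atf5 fell 1.72-fold and the seryl-tRNA synthetase gene Sars fell 1.49-fold. Ddit3 (CHOP) rose by 0.95 on the log2 scale.

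Antioxidant genes fell in 12 of 39 tested and rose in 4, where 9 and 2 were called without B_I_3. Gstm1, a glutathione transferase, went from 957, 1171 and 1330 CPM to 369, 344 and 375 CPM, a 3.18-fold fall (adjusted p = 7.6e-09). Mt1 (metallothionein) went from 1050, 1371 and 697 CPM to 338, 335 and 336 CPM, with a wide spread in B_I that stayed above D_I. Hmox1, haem oxygenase, rose 1.54-fold. Nuclear genes of oxidative phosphorylation had 9 lower and none higher of 30, with a median of -0.25, and Uqcrc2, a complex III core subunit, fell 1.44-fold. Without B_I_3, 6 were lower and 1 higher. Of 12 mitochondrially encoded genes 2 fell, among them mt-Nd1, from 9726, 10730 and 10290 CPM to 6389, 5148 and 5979 CPM.

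Among genes of drug targets, efflux pumps and anthracycline reductases, 6 of 23 rose and 1 fell, against 7 and 0 without B_I_3. Por, the reductase that passes electrons to doxorubicin as well as to cytochrome P450, stood at 489, 498 and 509 CPM against 331, 324 and 394 CPM. Abcg2, an efflux pump, rose 1.999-fold, a call lost without B_I_2 (adjusted p = 0.0906) or D_I_2 (0.0562). The largest rises in the list were Ces2e, a carboxylesterase (105, 92.4 and 87.7 CPM against 7.91, 3.61 and 3.72 CPM, 18.5-fold), and Akr1c18, a steroid reductase. Akr1c18 had 318 counts against 9, a depth-corrected ratio of 33.8 with a 95% counting interval of 17.6 to 74.6. In no list, Angptl4, an inhibitor of lipoprotein lipase, rose 6.44-fold. Growth factor pathway genes fell in 9 of 41 tested and rose in 3. Sfrp2, a secreted Wnt antagonist, went from 71.9, 74.2 and 88.2 CPM to 19.4, 22.02 and 21.4 CPM, and Wnt9a and Notch1 rose 3.43-fold and 2.07-fold.

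The response without isoliensinine was measured in Dox against Blank. There, 2896 genes (21.7%) were called, 1372 higher (10.3%) and 1524 lower (11.4%). Over 13375 genes the log2 fold changes of the 2 comparisons had a Pearson correlation of 0.56 and a Spearman correlation of 0.65, given as a description since genes are not independent replicates. Called in both and in the same direction were 1775 genes, which is 70.5% of those called in D_I against B_I and 61.3% of those called in Dox against Blank. Of the genes called in Dox against Blank, 98.2% had the same sign in D_I against B_I, compared with 77.9% of all genes. Their median log2 fold change, counted as positive in the direction of Dox against Blank, was 0.54 with isoliensinine and 0.67 without. Over genes called in D_I against B_I, counted in the direction of that comparison, the median was 0.66 with and 0.61 without. In each case the median was larger on the side that chose the genes. Without B_I_3 and Blank_4 the Pearson correlation was 0.46, and 97.1% of the genes called in Dox against Blank had the same sign.

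**Figure D4:**
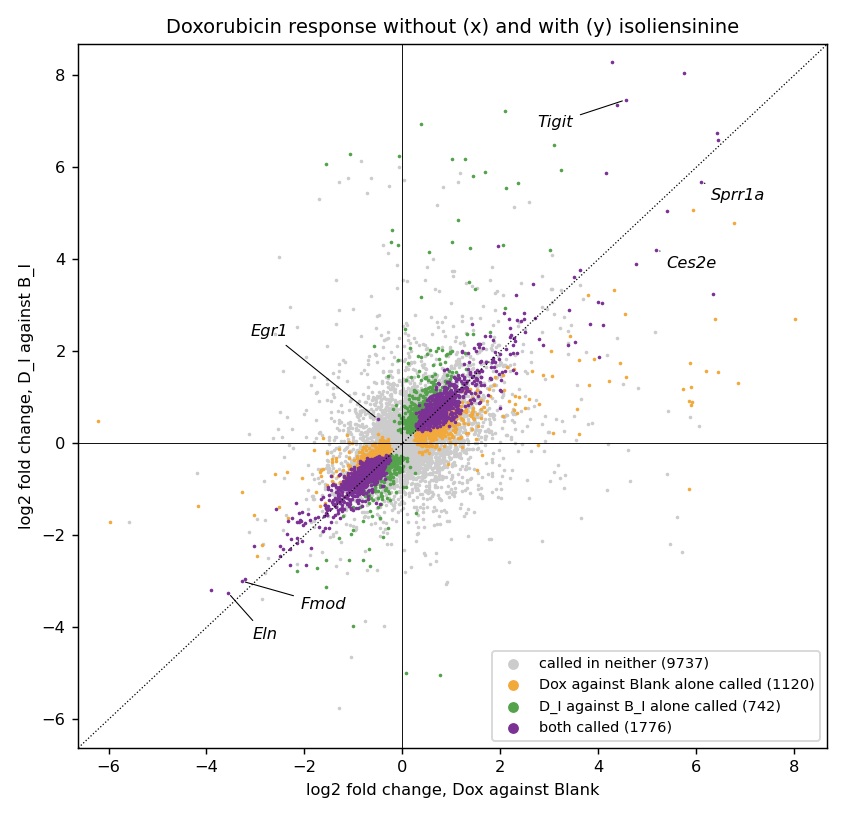
Log2 fold change of each of 13375 tested genes in Dox against Blank (horizontal) and in D_I against B_I (vertical), coloured by which comparison called it; the dotted line marks equal change. The 1776 genes called in both include Egr1, the one purple point above 0 on the vertical axis and below 0 on the horizontal axis.

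For leading genes the 2 comparisons can be read side by side. Cdkn1a had a log2 fold change of 1.94 with isoliensinine and 2.20 without, and the difference of -0.25 had a 95% interval of -0.63 to 0.12. For Oas1a the difference was 0.02 (-0.94 to 0.99), for Hbegf 0.14 (-0.42 to 0.70) and for Fmod 0.29 (-0.25 to 0.82). These intervals bound how far the responses could differ in these genes and do not show that they were equal. Other leading genes had intervals that left out 0, with no adjustment for the number of genes. Their differences were -0.98 for Ces2e (-1.85 to -0.10), -0.89 for Dlgap5 (-1.47 to -0.31) and 0.41 for Gstm1 (0.06 to 0.76). These were not the only ones. Among others were H2-K1 (0.34, 0.05 to 0.64), Cd24a (-0.53, -0.96 to -0.10) and Tigit (2.90, 0.31 to 5.50), which was near silent in B_I. Fos, with a difference of 1.29 (0.57 to 2.02), had a log2 fold change of 0.08 in Dox against Blank. By list, 22 and 23 p53 targets rose with and without isoliensinine, 27 and 24 interferon-stimulated genes rose, and 14 and 13 sterol genes fell. Some lists differed more: 12 and 21 lysosomal genes fell, and 2 and 7 contractile genes rose.

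The difference between the responses was itself tested as (D_I minus B_I) minus (Dox minus Blank), and edgeR's quasi-likelihood test called 0 of 13375 genes (0%). At an unadjusted p under 0.05 there were 522 genes (3.9%), and DESeq2 called 3, Egr1, Acss2 and Rras2. Precision was lower here, with a median SE of 0.32 per gene against 0.23 in D_I against B_I. B2m, for example, rose in D_I against B_I (0.57) and was not called in Dox against Blank (0.14, adjusted p = 0.432). Its difference of 0.44 (95% interval 0.10 to 0.78) had an adjusted p of 1. Immediate early genes, with 13 called higher with isoliensinine and 6 without, had no member called in the difference by edgeR, while DESeq2 called Egr1.

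Egr1, an immediate early zinc finger transcription factor, was the only gene called in opposite directions, and it is named after its values were seen. It stood at 286, 297 and 351 CPM in D_I and at 198, 192 and 260 CPM in B_I, a rise of 0.52 on the log2 scale (adjusted p = 0.00337). In Dox it stood at 195, 220 and 215 CPM against 316, 312 and 262 CPM in Blank, a change of -0.50 (adjusted p = 0.00413). Neither pair of groups overlapped. The difference of 1.02 (95% interval 0.66 to 1.39) had an adjusted p of 0.0625, the smallest of all genes. It passed the threshold without B_I_3 (1.16, adjusted p = 0.00198) and without Blank_4 (1.1, adjusted p = 0.00312), and by DESeq2 (1.01, adjusted p = 0.000271). It also passed without the expression filter (adjusted p = 0.00175) and with a replicate block (1.17, adjusted p = 0.000604). In the fit of only the groups compared it did not pass (0.469). Nor did it pass with upper-quartile scaling (0.0703), a filter of 5 CPM in 3 libraries (0.0768) or DESeq2 size factors in edgeR (0.0853). Limma did not call it either, on log2(FPKM + 1) (0.119) or log2(FPKM + 0.1) (0.127). Leaving out any other single library of the 4 groups gave 0.93 to 1.08, with adjusted p of 0.0925 to 0.435.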

How the data were processed

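RNA was captured on poly-T beads and copied from random primers, per the labels' protocols, which do not state strand. The deposited table holds raw read counts per gene and library and the authors' FPKM values, per the file headers. The submitters' processing notes list fastp 0.22.0, HTSeq 0.9.1 and HISAT2 2.1.0 and do not say what each did. No source used here names the build behind the table. Of 21959 genes, 51 (0.0187% of counts) have no symbol and stayed in under their identifiers.

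Counts were tested in R 4.3.3 with edgeR 4.0.16: expression filter, TMM scaling, robust quasi-likelihood fit with 1 mean for each of 6 groups over all 18 libraries, and Benjamini-Hochberg adjustment, called under 0.05. Levels are TMM-scaled CPM with n = 3 libraries per group. SE is the absolute log2 fold change over the square root of F, and 95% intervals use it. Counting intervals are exact and cover counting error only. The series text calls the replicates biological.

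Named genes are the 8 largest called changes each way with separate groups and at least 5 FPKM in the higher group, up to 4 called members of each of 39 lists in its main direction and 2 in the other, 17 fixed genes, and genes called in the difference. Other list members (Isg15, Cdk1, Bst2, Por, Top2a, Tap1, Tapbp, Nectin2, Raet1e, Cd274 and Egr1) and those of the NK recognition plot and the promoters were picked after their values were seen. Members and lists were chosen with earlier results of these data known. Alternatives used DESeq2 1.42.0, limma 3.58.1, other scalings and filters, a replicate block and left-out libraries. Fits without B_I_3 and Blank_4 together for D_I against B_I and fits of the 2 groups without B_I_3 were added after seeing the data, as were all alternatives for Dox against Blank. On simulated data for D_I against B_I (13101 genes fitted), 33.3% of 1.5-fold, 47.6% of 2-fold and 76.2% of 4-fold changes were called, with 6 false calls. The simulation changed 200 genes, far fewer than the 2518 called in the data. It also gave no library a shift like that of B_I_3, so these shares need not hold for the data. Promoters and motifs come from RefSeq windows on GRCm38.p6, matched by symbol: 27025 genes have a window.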

Additional observations from a re-analysis of the deposited data

Results flagged for a closer look

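Without B_I_3 and Blank_4, the test of the difference, (D_I minus B_I) minus (Dox minus Blank), called 8 genes by edgeR's quasi-likelihood test, where all libraries together gave 0. The difference was positive for Egr1 (1.25, adjusted p = 1.82e-05), Tapbp, a chaperone that loads peptides on MHC class I (0.81, 0.0209), and Psap, which encodes the saposin precursor of lysosomes (0.68, 0.0134). It was negative for Acta2 (-1.42, adjusted p = 0.000294), Fabp5, a fatty acid binding protein gene (-1.25, 0.0107), Pycr1, an enzyme of proline synthesis (-1.02, 0.0185), Id3, an inhibitor of helix-loop-helix factors (-0.91, 0.0277), and the tropomyosin gene Tpm1 (-0.63, 0.0282). Acta2 stood at 853, 891 and 1047 CPM in D_I, at 1122 and 1178 CPM in B_I_1 and B_I_2, at 2047, 1753 and 1707 CPM in Dox and at 806 and 901 CPM in Blank_1 and Blank_2. The left-out libraries had 3875 CPM (B_I_3) and 4514 CPM (Blank_4), and Id3 also stood high in them, at 280 and 341 CPM. These 2 libraries were left out because they stood apart, by Acta2 itself among other values. The calls of Acta2, and of Id3, which was high in the same libraries, are therefore not independent of that choice. The part of the choice in the calls was not tested.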

How the results depend on the processing

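Called genes in D_I against B_I numbered 1615 to 2545 when 1 library was left out, and 1615 and 1658 without D_I_1 and D_I_2. They numbered 1382 at an adjusted p under 0.01 and 571 with a change over 2-fold as well. Dox against Blank had 1876 to 2869 calls with 1 of its libraries left out, 1722 under 0.01 and 620 over 2-fold. Calls in the difference numbered 3 by DESeq2, 1 without the expression filter, 0 to 4 with 1 library left out (1 without B_I_3, 4 without Blank_4) and 8 without both. With the replicate block, D_I against B_I had 3120 calls and the difference 3. Deviations from the group means correlated over genes at 0.02 to 0.08 between same-numbered libraries of D_I and B_I. Between libraries of unlike number they correlated at -0.10 to 0.06. For each D_I library the same-numbered B_I library had the highest correlation or tied for it, though none was over 0.08. The labels state no paired design, so the numbers were not taken to pair the libraries. Correlations between the responses ran from 0.48 to 0.55 with 1 library left out and were 0.46 without B_I_3 and Blank_4. Of 157 called named genes, 104 kept their call in every alternative in which they were tested (17 for most, 14 or 15 for Cenpe, Traf1, Vldlr and Ctsf), and no called gene changed direction. Hmgcs1, not called, went from 0.10 to between -0.0857 (without B_I_3) and 0.2116 (without D_I_2) with 1 library left out, to -0.0907 without B_I_3 and Blank_4, and to -0.10 in the fit of the 2 groups without B_I_3. The cause was not tested. Depth limits genes under about 1 CPM, where few counts stand behind a value.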

Other observations

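Heat shock proteins and glycolysis genes belong to no comparison above. Of 18 tested heat shock genes, 5 were called higher in D_I than in B_I and 1 lower, with a median log2 fold change of 0.15, and without B_I_3 the counts were 1 and 1. Hsp90aa1, the inducible HSP90, stood at 76.9, 53.6 and 71.9 CPM against 43.5, 37.5 and 38.8 CPM (adjusted p = 0.0294 by edgeR's quasi-likelihood test, 0.0899 without B_I_3, and 0.086 to 0.118 without B_I_2, D_I_1 or D_I_3). Hspa8, the constitutive HSP70, was the member that fell, from 3777, 3641 and 2797 CPM to 2518, 2513 and 2332 CPM (adjusted p = 0.0286). Its call was lost without B_I_1, B_I_2 or any 1 of the D_I libraries (0.072 to 0.102) and with limma on log2(FPKM + 1) (0.24). Dox against Blank gave 7 higher and 0 lower in the same list.

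Of 29 tested genes of glycolysis and hypoxia, 4 fell and 2 rose. Tpi1, triosephosphate isomerase, went from 1730, 1932 and 1957 CPM to 1307, 1302 and 1322 CPM (adjusted p = 0.00165), and Pfkp, a phosphofructokinase, from 103, 104 and 106 CPM to 75.0, 69.7 and 70.5 CPM. Both groups of libraries were separate in each gene. Dox against Blank gave 5 higher and 3 lower, and the test of the difference by edgeR called no member of either list.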
